A study of Mus musculus with 203 samples.

Results

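The genes described here are Cebpa, Cebpb, Cebpd, Cebpg and Cebpz, the C/EBP (CCAAT/enhancer binding protein) genes picked by symbol from the RNA-seq tables of a study on interleukin 4 (IL4) in mouse macrophages. All 5 were found among the 25094 genes of the table for RAW264.7 cells (RAW cells), a macrophage-like line with the strain label BALB/c. All 5 were also listed among the 16478 genes of a table for bone marrow-derived macrophages of WT and macrophage-specific Gps2 KO mice, which was used for this count only, because its values are the authors' own comparisons. Every level and change below is therefore from RAW cells. These had been transduced with a lentivirus carrying an shRNA against GFP (shGFP, the control) or a single shRNA sequence against Kdm1a (shKDM1A) and selected with puromycin, so all groups share transduction and selection. Each line was either left untreated or kept with IL4 (20 ng/ml) during 6 h, which makes 4 groups, and each group has 4 libraries.

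C/EBP proteins are transcription factors with a basic region that binds DNA and a leucine zipper through which they pair with one another and with ATF proteins. C/EBPα and C/EBPβ, made from Cebpa and Cebpb, open and hold enhancers in the myeloid lineage together with PU.1. C/EBPδ is best known from inflammatory and acute phase responses, and C/EBPγ has no activation domain of its own and acts as a partner, for example of ATF4. Cebpz shares the name but not the leucine zipper, and its product is a nucleolar protein needed to make the large ribosomal subunit.

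In the coordinates of the deposited table (mm9), Cebpa lies on chromosome 7 from 35904312 to 35906947 on the plus strand, and Cebpg lies on the minus strand of the same chromosome from 35831441 to 35841585, with 62726 bases between them. Cebpb lies on chromosome 2 from 167514415 to 167515932 (plus strand), Cebpd on chromosome 16 from 15887379 to 15889638 (plus strand), and Cebpz on chromosome 17 from 79318343 to 79336410 (minus strand). Values are exon counts in origin, and the GENCODE annotation of mm9 gives 1 exon for Cebpa and for Cebpb, 3 exon blocks for Cebpg and 16 for Cebpz. For Cebpd it gives 2 blocks with 1 base between them and the type pseudogene, while the table counts it as a gene of 2257 bases. Strand was ignored in the counting, and genes that overlap can share reads. Cebpzos, on the opposite strand from 79315839 to 79320388, shares 312 exon bases with Cebpz, 7.66% of the exon bases of Cebpz, and passed the test in none of the comparisons below. The span of Spidr shares 321 bases with the span of Cebpd, and Spidr also passed in none.

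The promoters of Cebpa, Cebpg and Cebpb are shown because the first pair are neighbours on a chromosome that rose together after Kdm1a knockdown without IL4 and parted with IL4, and because Cebpb is the member with the highest level. They are the 250 bases before the RefSeq start (build GRCm38.p6), read in the direction of the gene. Capitals mark the TATA box letters TATAAA, the CCAAT box and the letters TGACG, each on either strand. These were chosen for marking after the windows had been read.
Cebpa, chr7:35119043-35119292, plus strand: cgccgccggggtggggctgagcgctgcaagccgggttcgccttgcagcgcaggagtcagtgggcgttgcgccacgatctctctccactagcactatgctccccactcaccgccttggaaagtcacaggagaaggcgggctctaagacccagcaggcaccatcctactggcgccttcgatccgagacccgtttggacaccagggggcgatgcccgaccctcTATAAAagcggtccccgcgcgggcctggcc
Cebpg, chr7:35056567-35056816, minus strand: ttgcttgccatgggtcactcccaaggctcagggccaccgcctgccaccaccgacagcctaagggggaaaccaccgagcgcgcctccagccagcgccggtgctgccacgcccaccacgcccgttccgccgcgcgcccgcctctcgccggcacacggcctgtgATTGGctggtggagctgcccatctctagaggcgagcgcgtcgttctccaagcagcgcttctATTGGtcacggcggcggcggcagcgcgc
Cebpb, chr2:167688665-167688914, plus strand: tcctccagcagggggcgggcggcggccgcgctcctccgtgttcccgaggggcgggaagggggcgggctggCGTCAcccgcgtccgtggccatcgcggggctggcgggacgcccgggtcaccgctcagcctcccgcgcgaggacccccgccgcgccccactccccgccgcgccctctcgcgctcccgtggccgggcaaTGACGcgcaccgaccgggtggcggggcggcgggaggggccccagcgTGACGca

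Cebpa has a TATAAA that begins 30 bases before the start, and Cebpg has no TATAAA but carries CCAAT in reverse, beginning 89 and 28 bases before the start. Cebpb carries TGACG, the core letters of a cyclic AMP response element, in 3 places before the start, and its TATAAA begins at base 22 after it. Of the 32851 promoter windows of 300 bases in the same RefSeq table, 13.6% held TATAAA, 37.4% held CCAAT and 20.8% held TGACG. A further 4 motifs were searched for on both strands of the 3 windows: TTNNGCAA (C/EBP-type, in 10.8% of all windows), TGACGTCA (the full response element, 1.79%), TGATGCAA (C/EBP with ATF, 0.895%) and TTC and GAA spaced by 4 bases (STAT6-type, 6.95%). None of them was found in the 3 windows. The table of windows has 3 of the 5 members, and Cebpd and Cebpz are named only.

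The libraries held 17554721 to 27782568 tags. Values are on the log2 scale of the deposited table, and a change is a difference of group means on that scale. It was tested with limma over the 12905 genes that reached a value of 1 in 4 or more libraries, and a gene was called at a Benjamini-Hochberg adjusted p under 0.05. All 5 members passed this filter. Folds, percent changes and shares of linear level take the values as plain log2, although their transformation is not given. Kdm1a, which encodes the lysine demethylase targeted by the shRNA, lay between 11.07 and 11.23 in the 8 shGFP libraries and between 10.23 and 10.36 in the 8 shKDM1A libraries. In shKDM1A cells it decreased by 45.8% without IL4 (log2 change -0.88, SE 0.028) and decreased by 42.0% with IL4 (-0.79, SE 0.028). Of 8 macrophage markers, 7 were tested, with Lyz2 at 16.35 to 17.18 and Csf1r at 14.97 to 15.49, while Mertk stayed at or under -0.98. All 7 were called in both knockdown comparisons, 5 higher and 2 lower in shKDM1A cells. Of all genes tested, 38.2% were called without IL4 (19.7% higher, 18.4% lower) and 40.7% with IL4 (20.9% higher, 19.8% lower). Itgam was 0.41 higher without IL4 and 0.25 higher with it, Fcgr1 was lower (-0.45 and -0.18), and so was Adgre1 (-0.11 and -0.44). The first value of Adgre1 lost its call without shGFP replicates 2, 3 or 4 or shKDM1A replicates 1, 2 or 4, each left out alone (adjusted p = 0.0536 to 0.104), and without the filter on low values (adjusted p = 0.0575). None of 17 markers of T cells, B cells, neutrophils, mast cells, fibroblasts and epithelium passed the filter, with 9 of them at 0 in every library, Cd3g, Ms4a1, Ly6g, Cpa3, Col1a2 and Epcam among these, and the other 8 at or under -0.11.

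Per kb of transcript, Cebpb was the highest of the 5 genes in every group, and the order of the other 4 changed between groups. These levels are the deposited log2 values minus the log2 of the transcript length in kb, and they were not tested. In shGFP cells without IL4, Cebpb stood at 11.27 ± 0.10 (SD, n = 4), above 94.8% of the genes tested. Cebpz followed at 9.31 ± 0.010, then Cebpa at 8.68 ± 0.040. Cebpd at 8.23 ± 0.079 and Cebpg at 7.95 ± 0.050 were last, and each neighbouring pair in this order was separated in all libraries. Cebpb was thus 6.03-fold above Cebpa in the control.

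The distance between Cebpb and Cebpa was wider in every library of the control than in any library of the other groups. It was 5.03-fold in shGFP cells with IL4, 4.75-fold in shKDM1A cells without IL4 and 4.19-fold with IL4, and the libraries of shKDM1A cells without IL4 overlapped with those of both groups given IL4. In this last group Cebpa at 9.40 ± 0.021 had passed Cebpz at 9.24 ± 0.029, and no library of one overlapped the other. Cebpd and Cebpg changed places in shKDM1A cells, at 7.95 ± 0.069 and 8.12 ± 0.037 without IL4. Their libraries overlapped in both groups given IL4, so no order of these neighbours holds there. Of the summed linear level per kb of the 5 genes, Cebpa made up 10.1% ± 0.24 in the control and 14.7% ± 0.55 in shKDM1A cells with IL4, and Cebpd 7.38% ± 0.16 and 5.05% ± 0.31.

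**Figure D1:**
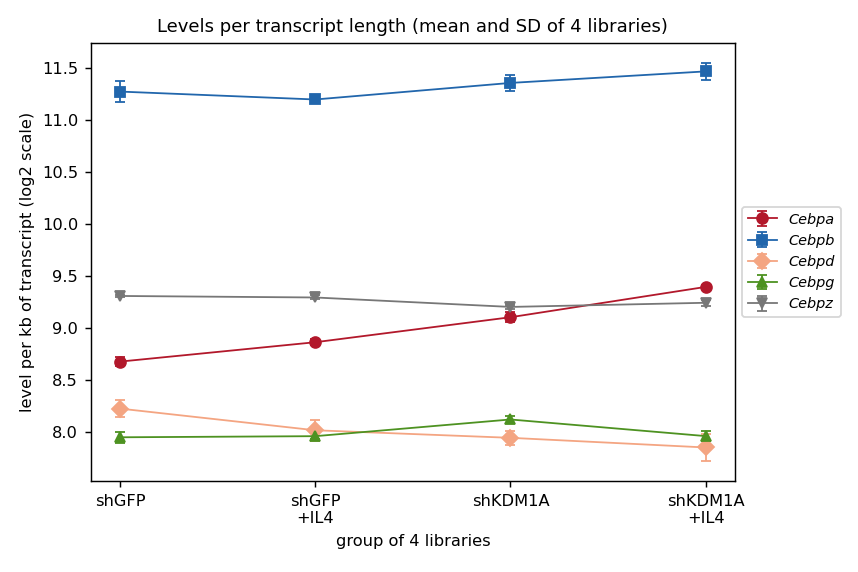
Level per kb of transcript (log2 scale, vertical axis) of the 5 genes in the 4 groups (horizontal axis), with points at the mean of 4 libraries and bars of 1 SD. Cebpb lies above 11 in every group, and Cebpa climbs from 8.68 to 9.40 past Cebpz.

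Without IL4, Kdm1a knockdown went with more Cebpa and Cebpg and less Cebpd and Cebpz mRNA. In bulk RNA, a change in the number of cells that express a gene and a change in RNA per cell cannot be told apart. Of the 5 members, 4 were called, 2 higher and 2 lower, where 38.2% of all genes tested were called, 19.7% higher and 18.4% lower. The question here is what differs in cells with less Kdm1a mRNA before any cytokine is given.

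Cebpa, the myeloid lineage factor, read 10.08, 10.11, 10.02 and 10.10 in the 4 shGFP libraries and 10.55, 10.50, 10.44 and 10.52 in the 4 shKDM1A libraries. The groups did not overlap. The rise was 1.34-fold (log2 change 0.43, SE 0.026, 95% interval 0.37 to 0.48, adjusted p = 1.27e-09), and 3.55% of the genes tested had a larger absolute change.

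Cebpg, the partner without an activation domain, read 10.14, 10.16, 10.26 and 10.18 in shGFP and 10.40, 10.34, 10.32 and 10.36 in shKDM1A libraries. All shKDM1A libraries were again above all shGFP libraries, by a gap of 0.063. The rise was 1.13-fold (0.17, SE 0.029, adjusted p = 0.000178).

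Cebpd, the inflammatory member, read 9.39, 9.47, 9.30 and 9.46 in shGFP and 9.08, 9.22, 9.06 and 9.13 in shKDM1A libraries. The groups did not overlap, and the change was -0.28 (SE 0.063, adjusted p = 0.00207), a level lower by 1.21-fold. It was the largest fall among the members.

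Cebpz, the nucleolar protein gene, lay between 11.32 and 11.34 in shGFP and between 11.21 and 11.25 in shKDM1A libraries. The change was -0.11 (SE 0.018, adjusted p = 0.00026), the smallest of the 4 called, and 31.4% of the genes tested had a larger absolute change. The spread within groups was small, with an SD of 0.010 in shGFP and 0.019 in shKDM1A libraries. The overlapping Cebpzos had a change of -0.042 (SE 0.031, adjusted p = 0.327).

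Cebpb, the most abundant member, read 11.91, 11.90, 11.72 and 11.95 in shGFP and 12.05, 11.99, 11.90 and 11.87 in shKDM1A libraries. The groups overlapped, and the change of 0.083 (95% interval -0.024 to 0.19, adjusted p = 0.22) was not called. All 5 results stood on the same side of the threshold in every alternative run.

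**Figure D2:**
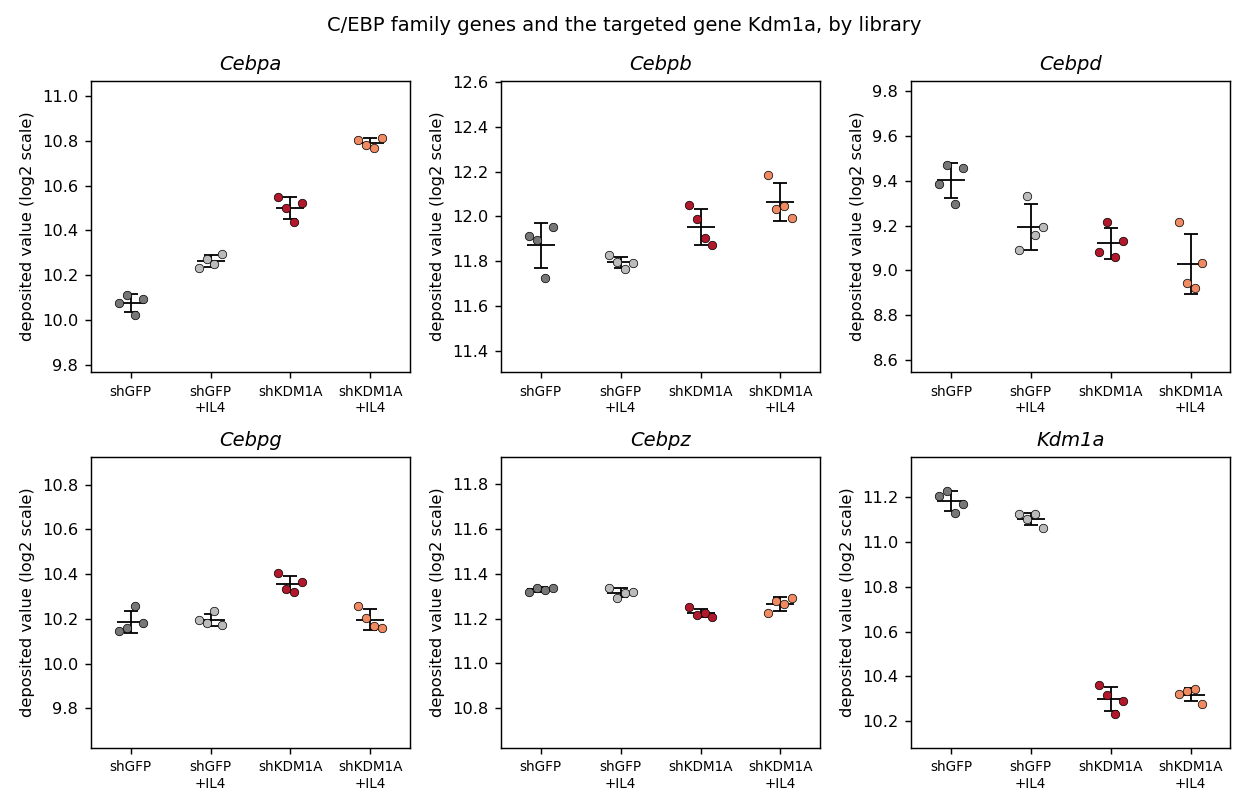
Deposited value on the log2 scale (vertical axis, every panel spanning the same 1.3 units) of the 5 members and Kdm1a in each of the 16 libraries, by group (horizontal axis), with bars for the mean and 1 SD of 4 libraries. Cebpa steps up through the 4 groups without overlap, Cebpg is high only in shKDM1A libraries without IL4 (10.32 to 10.40), and Kdm1a is low in all shKDM1A libraries.

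With IL4, Cebpa and Cebpb were higher in shKDM1A than in shGFP cells, and no difference was detected for Cebpg. Of the 5 members, 4 were called, Cebpa and Cebpb higher and Cebpd and Cebpz lower, beside 40.7% of all genes tested (20.9% higher, 19.8% lower). The calls of Cebpd and Cebpz were not stable, and each of 7 other settings lost at least 1 of them.

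Cebpa read 10.23, 10.27, 10.25 and 10.29 in shGFP and 10.81, 10.78, 10.77 and 10.81 in shKDM1A libraries given IL4. The gap between the groups was 0.48, wider than the whole range within either. The difference was 1.44-fold (0.53, SE 0.026, 95% interval 0.48 to 0.59, adjusted p = 8.74e-11).

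Cebpb read 11.83, 11.79, 11.76 and 11.79 in shGFP and 12.19, 12.03, 12.04 and 11.99 in shKDM1A libraries. No library of one group reached the other, and the level was 1.21-fold higher in shKDM1A cells (0.27, SE 0.050, adjusted p = 0.000425). Among the shKDM1A libraries, replicate 1 was the highest, and without it the change was 0.23.

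Cebpg lay between 10.17 and 10.24 in shGFP and between 10.16 and 10.26 in shKDM1A libraries. The ranges covered each other, and the difference was 0.00078 (95% interval -0.060 to 0.062, adjusted p = 0.988).

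Cebpd lay between 9.09 and 9.33 in shGFP and between 8.92 and 9.22 in shKDM1A libraries, with overlap. The change of -0.17 (SE 0.063, adjusted p = 0.0461) was called only narrowly. The call was lost when any one of 12 of the 16 libraries was left out, that is, any but shGFP replicate 3, shGFP with IL4 replicate 1, shKDM1A replicate 2 and shKDM1A with IL4 replicate 1 (adjusted p = 0.0501 to 0.155). It was also lost in 4 of 7 other settings.

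Cebpz, with a change of -0.051 (SE 0.018, adjusted p = 0.0377), overlapped between groups too, at 11.29 to 11.34 against 11.22 to 11.29. This call was lost in 5 of 7 other settings, and without shGFP with IL4 replicates 1, 3 or 4 or shKDM1A with IL4 replicates 1 or 3, each left out alone (adjusted p = 0.067 to 0.128).

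IL4 itself raised Cebpa in both lines. In shGFP cells 2 of the 5 members were called, Cebpa higher and Cebpd lower, beside 26.9% of all genes tested (13.1% higher, 13.7% lower). In shKDM1A cells 2 members were called as well, Cebpa higher and Cebpg lower, beside 27.1% of all genes (13.6% higher, 13.5% lower). Of the 7 macrophage markers tested, IL4 raised 2 and lowered 2 in shGFP cells, and raised 3 and lowered 2 in shKDM1A cells. Their changes ran from -0.53 to 1.24 and from -0.19 to 0.90. The comparisons of the lines and those of IL4 draw on the same libraries, so their values are given side by side and not as support for each other.

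Cebpa rose 1.14-fold with IL4 in shGFP cells (0.19, SE 0.026, adjusted p = 4.1e-05) and 1.22-fold in shKDM1A cells (0.29, SE 0.026, adjusted p = 2.86e-07). In each line all 4 treated libraries were above all 4 untreated ones. The 4 group means of Cebpa spanned 0.72 on the log2 scale, the widest span among the members, against 0.11 for Cebpz.

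Cebpd was lower with IL4 in shGFP cells (-0.21, SE 0.063, adjusted p = 0.0213), with 9.30 to 9.47 in untreated and 9.09 to 9.33 in treated libraries. These overlapped through 1 treated library at 9.33. The call was lost without shGFP replicates 2 or 4, or without shGFP with IL4 replicates 1 or 3, each left out alone (adjusted p = 0.0564 to 0.0719). In shKDM1A cells the change of Cebpd with IL4 was -0.093 (95% interval -0.23 to 0.041, adjusted p = 0.32).

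Cebpg, in contrast to Cebpa, had a change of 0.011 with IL4 in shGFP cells (adjusted p = 0.847). In shKDM1A cells it fell from 10.32 to 10.40 without IL4 to 10.16 to 10.26 with it, without overlap (-0.16, SE 0.029, adjusted p = 0.000521). Cebpb changed by -0.076 (adjusted p = 0.31) and 0.11 (adjusted p = 0.122) in the lines, and Cebpz by -0.015 (adjusted p = 0.642) and 0.040 (adjusted p = 0.131). Neither was called in either line. Cebpz was called in shKDM1A cells when shKDM1A with IL4 replicate 1 was left out (0.053, adjusted p = 0.0459).

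The difference between the IL4 responses of the lines, shKDM1A minus shGFP, was called for 1 of the 5 members, Cebpg, beside 6.13% of all genes tested (3.56% with a higher and 2.57% with a lower value in shKDM1A cells). For Cebpg it was -0.17 (SE 0.041, 95% interval -0.26 to -0.083, adjusted p = 0.0226), so its knockdown effect without IL4 differed from that with IL4. Without shGFP with IL4 replicate 3 the difference was -0.16 and the call was lost (adjusted p = 0.0509). For Cebpb the difference was 0.19 (SE 0.071, 95% interval 0.036 to 0.34, adjusted p = 0.13) and was not called. It was called when shGFP replicate 3, the lowest Cebpb library at 11.72, was left out (0.24, adjusted p = 0.0343). For Cebpa it was 0.11 (95% interval 0.027 to 0.18, adjusted p = 0.0976), for Cebpd 0.12 (adjusted p = 0.479) and for Cebpz 0.054 (adjusted p = 0.231), so a different IL4 response of these genes was not shown.

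**Figure D3:**
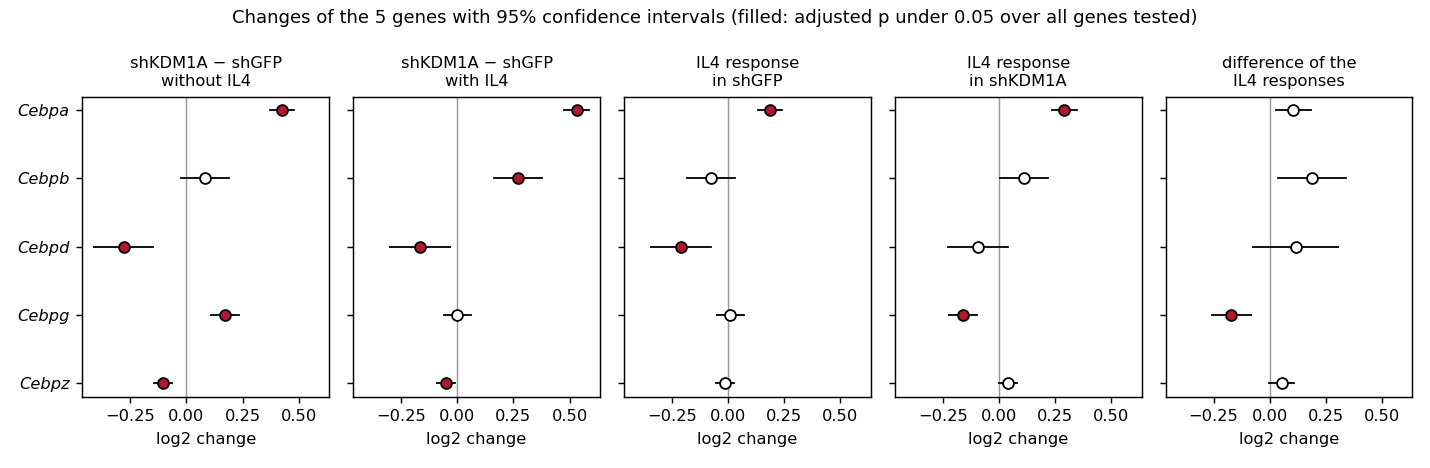
Log2 change with its 95% confidence interval (horizontal axis) of the 5 members (rows) in the 5 comparisons (panels), with filled points for an adjusted p under 0.05 over all genes tested. Cebpa is filled on the right in the first 4 panels, and Cebpg is filled in the first panel (0.17), the fourth (-0.16) and the fifth (-0.17).

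The genes whose values followed Cebpa most closely over the 16 libraries were Snx1, Hist1h1c and Tmem106a. Likeness was the root mean square difference of values centred on their own mean, over 12904 other genes, and was 0.053, 0.061 and 0.063 on the log2 scale. Snx1, which encodes a sorting nexin of the endosome, had knockdown differences of 0.47 without and 0.54 with IL4 and IL4 responses of 0.14 in shGFP and 0.20 in shKDM1A cells. The group means of the other 4 members spanned at most 0.37, too little for such a search.

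Among 13 relatives, dimer partners and regulators of C/EBP proteins, 12 were tested and Trib2 was at 0 in every library. Without IL4, 6 were higher and 1 was lower in shKDM1A cells, where 19.7% of all genes tested were higher and 18.4% lower, with a list median of 0.062 against -0.0027 for all genes. With IL4, 5 were higher and 4 lower (20.9% and 19.8% of all genes), with a median of -0.090 against -0.0024. Cebpe, the granulocyte relative, had a level of 6.57 to 6.85 and was called in no comparison.

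The ATF partners rose with the knockdown in both states. Atf5 was 0.52 higher without IL4 (SE 0.039, adjusted p = 1.75e-08) and 0.33 higher with IL4 (adjusted p = 3.83e-06). Atf4, the amino acid response factor that pairs with C/EBPγ, was 0.11 higher without IL4 (adjusted p = 0.00335) and 0.18 higher with IL4 (adjusted p = 2.78e-05). The first of these was 0.059 with quantile normalization (adjusted p = 0.0726). With IL4, Atf4 fell in both lines, by 0.33 and 0.26, and Ddit3, which encodes the dimer partner CHOP, fell by 0.17 and 0.25. In shGFP cells Atf5 was 0.11 higher with IL4, a call lost when any one of 9 libraries was left out (shGFP replicates 2 and 3, all 4 of shGFP with IL4, shKDM1A replicates 1 and 4, and shKDM1A with IL4 replicate 2, adjusted p = 0.0502 to 0.148) and without the filter on low values (adjusted p = 0.0762). Of the 12 tested genes of the list, IL4 raised 3 and lowered 3 in shGFP cells (13.1% and 13.7% of all genes), and raised 1 and lowered 4 in shKDM1A cells (13.6% and 13.5%).

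Trib1 and Trib3 encode pseudokinases, of which TRIB1 brings C/EBPα to the ubiquitin ligase COP1 for degradation. Trib1 was 0.20 higher in shKDM1A cells without IL4 and 0.15 higher with IL4, and it rose with IL4 in both lines (0.49 and 0.44, SE 0.034). Trib3 went opposite ways. Its level was 6.51 in shGFP and 6.81 in shKDM1A cells without IL4, and 6.68 and 6.41 with IL4. The difference in IL4 response was -0.58 (SE 0.064, adjusted p = 7.54e-05), the only one called among the 12 tested genes of this list, beside 6.13% of all genes. The count was 1 to 2 with 1 library left out and 1 to 3 in the other settings. Cop1 itself was not called in the knockdown comparisons.

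Spi1, which encodes PU.1, was 0.11 higher in shKDM1A cells without IL4 (adjusted p = 0.00958) and 0.25 higher with IL4 (adjusted p = 5.51e-06). Stat3 was 0.11 higher without IL4 and 0.10 higher with it. Creb1, whose protein binds cyclic AMP response elements, was lower in shKDM1A cells in both states (-0.15 and -0.18). Runx1 at -0.14 and Celf1 at -0.12 were called lower with IL4. The call of Runx1 was lost without shGFP with IL4 replicates 3 or 4 or shKDM1A with IL4 replicate 1, and that of Celf1 without shGFP with IL4 replicate 2 or shKDM1A with IL4 replicates 1 or 3 (adjusted p = 0.0646 to 0.113). With only the groups of the comparison fitted both calls were lost (adjusted p = 0.0512 for Runx1 and 0.0615 for Celf1), and without the filter on low values that of Runx1 was lost as well (adjusted p = 0.0594).

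Of 26 genes known to depend on C/EBP factors in myeloid cells, 14 were tested, and Il6, Il12b, Nos2, Lcn2, Elane, Mpo, Chil3 and Retnla were among the 12 below the filter. Saa3 (1.83 to 1.89), S100a8 (1.21 to 1.26) and Hp (1.00 to 1.07) were tested but lay near the filter value of 1. They count in the medians below. Without IL4, 2 were higher and 7 lower in shKDM1A cells (19.7% and 18.4% of all genes), with a median of -0.054 against -0.0027 for all genes. With IL4, 3 were higher and 4 lower (20.9% and 19.8%), with a median of -0.019 against -0.0024. Csf1r and Lyz2 of this list, and Spi1 of the list before it, also served as macrophage markers above. The summed linear level of these 8 markers, most of it Lyz2, lay between 17.44 and 17.50 on the log2 scale in shGFP libraries and between 17.68 and 17.71 in shKDM1A libraries without IL4, and between 17.18 and 17.21 and between 17.62 and 17.72 with IL4. This sum follows Lyz2 and not Fcgr1 and Adgre1, which were lower in shKDM1A cells. Its part in the changes of the listed genes was not tested.

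The receptor genes of the list did not share a direction. Csf3r, the granulocyte colony-stimulating factor receptor, was lower in shKDM1A cells (-0.46, SE 0.032, adjusted p = 5.57e-09 without IL4 and -0.56, adjusted p = 5.24e-10 with IL4). Csf1r, the macrophage colony-stimulating factor receptor, was 0.21 and 0.22 higher, although with quantile normalization the second value was -0.0071. Clec4e, the receptor Mincle, was lower by 1.36-fold without IL4 (-0.45, SE 0.025) and less so with IL4 (-0.21). Cd14, the lipopolysaccharide coreceptor, was -0.081 without IL4 and 0.40 with IL4. Its level fell with IL4 from 14.62 to 13.69 in shGFP cells and from 14.54 to 14.09 in shKDM1A cells. Csf2ra, a chain of the granulocyte-macrophage colony-stimulating factor receptor, was not called in either state (0.016, adjusted p = 0.665 without IL4 and -0.012, adjusted p = 0.734 with IL4).

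Among secreted and metabolic products, Lyz2, the lysozyme gene, was 0.26 higher without IL4 and 0.68 higher with IL4 in shKDM1A cells. With quantile normalization its difference without IL4 was 0. That scaling sets values of equal rank equal in all libraries, so it cannot test the change of a gene that keeps its rank. C3, the central complement component, was -0.15 and -0.59. IL4 raised C3 by 0.78 in shGFP and 0.34 in shKDM1A cells. Pparg was lower in both states (-0.31 and -0.30), and Fabp4 (-0.15) and Ptgs2 (-0.25) were called lower without IL4.

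With IL4 in shGFP cells, 4 of the 14 tested genes were higher and 4 lower (13.1% and 13.7% of all genes), and in shKDM1A cells 5 were higher and 3 lower (13.6% and 13.5%). Ptgs2, the cyclooxygenase-2 gene, rose by 0.71 in shGFP and 0.90 in shKDM1A cells. The difference in IL4 response was called for 6 of the 14 genes, 5 with a higher and 1 with a lower value in shKDM1A cells, beside 3.56% and 2.57% of all genes. The count was 4 to 6 with 1 library left out and 4 to 7 in the other settings, and Ptgs2 (0.19) and Fabp4 (0.10) were the calls lost among the 5 higher ones.

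**Figure D4:**
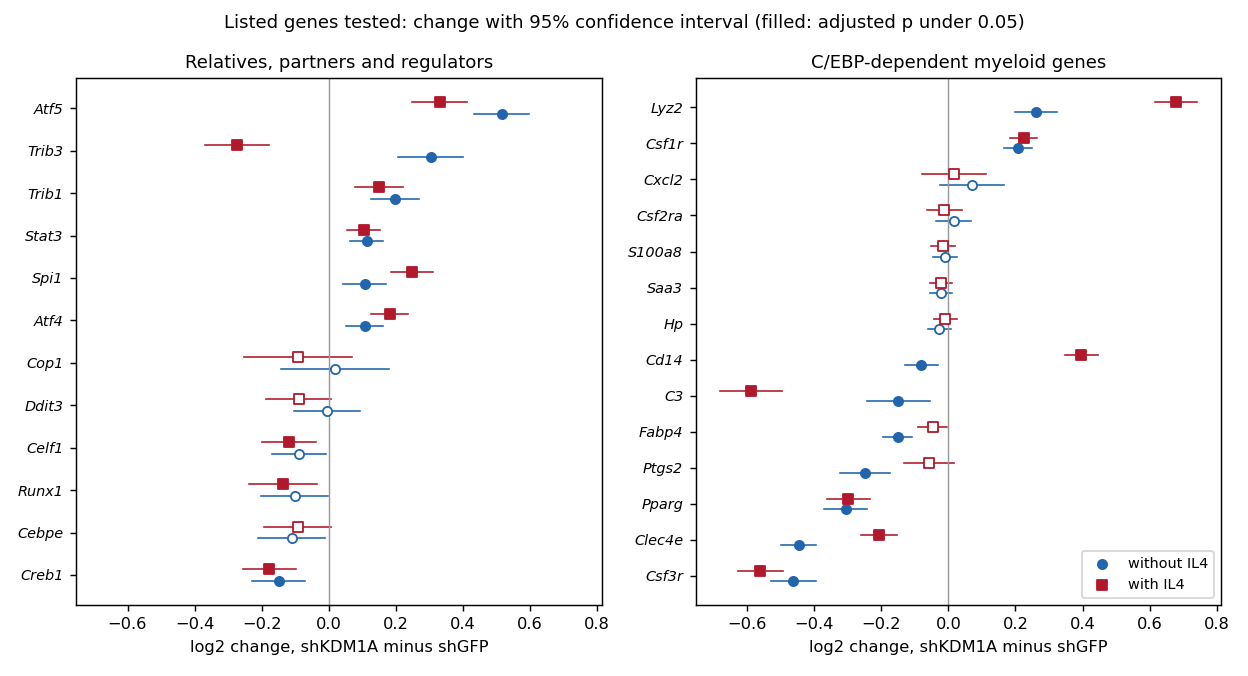
Log2 difference between shKDM1A and shGFP cells with its 95% confidence interval (horizontal axis) for the 12 tested partners and regulators (left) and the 14 tested dependent genes (right), without IL4 (circles) and with IL4 (squares), filled for an adjusted p under 0.05. Trib3 at 0.30 and -0.27 and Cd14 at -0.081 and 0.40 lie on opposite sides of 0 in the 2 states.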

How the data were processed

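RNA of RAW cells was sequenced in 4 groups of 4 libraries. Reads were aligned to mm9 with HISAT2 and Bowtie2 by the authors, who counted them on exons on both strands with HOMER, condensed to 1 row per gene. In the deposited table each library has log2 scale values, moderated for low expression, and the transformation is not given in the sources used here. They are not counts, so no count model was fitted. Columns of the authors' own comparisons (fold changes, p-values) in both RNA-seq tables were not used, and samples of other assays were not analysed here.

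Values were tested with limma 3.58.1 in R 4.3.3 (lmFit, eBayes, means of 4 groups) over the 12905 genes that reached 1 in 4 or more libraries, adjusted by Benjamini-Hochberg, with a threshold of 0.05. On simulated data for knockdown without IL4 over 12905 genes, 200 of 200 genes changed by 0.5 were recovered, with 12 false calls. No member changed by that much in this comparison, with Cebpa the largest at 0.43. Recovery of smaller changes was not tested. The study describes its replicates in general as biological, and the labels do not say whether these libraries came from separate cultures, so p-values measure the spread between libraries, part of which may be technical. Its stable lines were expanded after selection, and the labels name no separate lines of the same shRNA. A difference between the lines and an effect of the knockdown thus cannot be told apart. The total tags, 17554721 to 27782568, set the depth, and the count behind a single value is unknown.

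All 5 members were named. Of the other lists, at most 4 called genes with the largest change per direction were named, plus genes named for a role. Some genes of the lists are not reported here. Members and lists were chosen with earlier results of these data known. Alternatives were the filter, scaling, the prior variance, the groups fitted, a replicate block and leaving out each library. For listed genes these were added after seeing the data. Promoters came from RefSeq (GRCm38.p6).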

Additional observations from a re-analysis of the deposited data

Results flagged for a closer look

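The IL4 response of shKDM1A cells minus that of shGFP cells passed the test of the difference for 1 member, 7 genes of the partner and dependent lists and 3 further macrophage markers. Of the genes tested, these were 1 of 5 members, 1 of 12 partners and 6 of 14 dependent genes. With Lyz2 counted again, 4 of 7 macrophage markers passed. The share over all genes tested was 6.13%. The member was Cebpg, at -0.17 on the log2 scale (adjusted p = 0.0226), which was called lower with IL4 in shKDM1A cells. Its call was lost without shGFP with IL4 replicate 3 (-0.16, adjusted p = 0.0509). Trib3 had the lowest value, -0.58 (adjusted p = 7.54e-05), and C3 stood at -0.44 (adjusted p = 0.00057). The value was above 0 for Cd14 at 0.48 (adjusted p = 2.83e-07), Lyz2 at 0.42 (adjusted p = 2.88e-05) and Clec4e at 0.24 (adjusted p = 0.000781). Ptgs2 at 0.19 (adjusted p = 0.033) and Fabp4 at 0.10 (adjusted p = 0.0419) lost the call when any one of 8 and of 13 libraries was left out. For Ptgs2 these were shGFP replicates 1, 2 and 3, shGFP with IL4 replicates 2, 3 and 4 and shKDM1A replicates 1 and 2 (adjusted p = 0.0518 to 0.0657), and for Fabp4 all but shGFP replicate 3, shGFP with IL4 replicate 3 and shKDM1A with IL4 replicate 4 (adjusted p = 0.0543 to 0.0852). Both calls were also lost with the replicate block (adjusted p = 0.0557 for Ptgs2 and 0.0617 for Fabp4), and that of Ptgs2 without the filter on low values (adjusted p = 0.0557). Among the markers, Adgre1 stood at -0.33 (adjusted p = 0.00118), Fcgr1 at 0.27 (adjusted p = 0.00156) and Itgam at -0.16 (adjusted p = 0.0435). The call of Itgam was lost when any one of 12 libraries was left out, all but shGFP replicate 3, shKDM1A replicate 1 and shKDM1A with IL4 replicates 2 and 4 (adjusted p = 0.0514 to 0.0894), and without the filter on low values (adjusted p = 0.0656). No library of any member or of Kdm1a stood apart from the other 3 of its group by Dixon's test, in 24 groups tested.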

How the results depend on the processing

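All counts over all genes stayed within 1.5 times of the reported ones, and of 570 changes of members under an alternative, 529 kept their direction and side of the threshold. The number of members called for knockdown with IL4 was 2 in place of 4 under median centring and with only the groups of the comparison fitted, 3 under the other 5 settings, and 2 to 4 with 1 library left out. For IL4 in shGFP cells it was 1 to 2 with 1 library left out, and for the difference in IL4 response 0 to 2. In these the calls that moved were those of Cebpd, Cebpz, Cebpb and Cebpg given with the results. Cebpg, near 0 for knockdown with IL4, was -0.016 with quantile normalization and between -0.020 and 0.014 with 1 library left out, and for IL4 in shGFP cells between -0.0030 and 0.035. With quantile normalization Lyz2 was 0 for knockdown without IL4, Csf1r was -0.0071 with IL4, and the fall of Lyz2 with IL4 in shKDM1A cells was not called (-0.035, adjusted p = 0.365). This scaling sets values of equal rank equal, so it cannot test the change of a gene that keeps its rank. The partners called for the difference in IL4 response were 2 under the stricter filter, 3 with a trended prior variance and 1 to 2 with 1 library left out (2 without shGFP replicates 3 or 4 or shKDM1A with IL4 replicates 2 or 4). The causes were not tested.

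Replicate numbers are shared by the groups, and whether they pair the libraries was not settled. Over 24 pairs with the same number, deviations from group means correlated between -0.34 and 0.27, with 3 over 0.1. Pairs with unlike numbers were not compared. With the replicate block the members called were 4 for knockdown without IL4 and 3 with IL4, where Cebpz was not called (-0.051, adjusted p = 0.0646), and 2, 2 and 1 in the comparisons of IL4. Of the listed genes, Ptgs2 and Fabp4 lost the call for the difference in IL4 response (adjusted p = 0.0557 and 0.0617). The fit of only the groups compared was not run for the difference in IL4 response, which uses all 4, and no member had more than 1 row, so a second length could not be tried.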
